A study of Mus musculus with 10 samples.

Results

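The genes described here encode 10 enzymes of glycolysis and of the interconversion of pyruvate and lactate: the hexokinases Hk1 and Hk2, the phosphofructokinase Pfkm, the aldolases Aldoa and Aldoc, Gapdh, Pgam1, Eno2 and the lactate dehydrogenases Ldha and Ldhb. They were found by symbol, and 16 of the 25152 gene entries of the deposited table (10 of 20045 symbols) carried 1 of these names. ChIP-Seq libraries for 2 histone modifications came from whole mouse retina at 4 stages, E17.5 before birth and PN1, PN7 and PN15, named for the postnatal day. H3K4me2 is found at active and poised promoters and H3K27me3 at genes silenced by Polycomb proteins. Each value is the normalized occupancy, the reads within 2.5 kb on either side of a transcription start site (TSS), scaled by the authors for the mapped reads in each library and given without decimals.
The mice were wild type C57BL/6j by the account of the methods, without transgene or treatment, and chromatin came from at least 20 pooled retinas per isolation of nuclei. The sample labels instead name the Pde6b (rd1/rd1) strain for every library, write the embryonic stage as E17 and give the catalogue numbers of the antibodies for the marks the other way round. Marks and stages were taken from the sample titles. There was 1 library for each mark and stage, so no difference below has a replicate to be set against, and no test was made. A library of rd1/rd1 retina at PN30 and an anti-GFP library at PN56 were not used here.

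Glycolysis splits glucose into pyruvate. Hexokinase traps glucose as glucose 6-phosphate, phosphofructokinase commits it to the pathway, aldolase cleaves the sugar, and Gapdh, phosphoglycerate mutase and enolase carry the products towards pyruvate, which lactate dehydrogenase converts to lactate. The retina is known for releasing lactate even when oxygen is plentiful, and photoreceptors are its main glucose consumers. Several steps have isozymes with separate genes, among them the brain and neuronal forms Aldoc and Eno2, and the genes themselves can have alternative first exons.

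The libraries were compared by internal measures. The 1403 entries of olfactory and vomeronasal receptor genes, which retina does not use, gave a low reference in each library, and its 99th percentile was 6, 9, 1 and 9 for H3K4me2 and 32, 39, 39 and 39 for H3K27me3. Values in such rows of 4 are in stage order throughout, from E17.5 to PN15. Of 11 markers of retinal cell types, 11, 11, 11 and 10 lay above it for H3K4me2, while 8 markers of pigment epithelium, lens, blood, endothelium and muscle ranged from 0 to 18, with 3, 1, 2 and 1 above it. Most genes pass this reference, 72.6%, 69%, 72.1% and 68.3% of all symbols. Among 11 measured rod phototransduction genes, the median H3K4me2 was 10, 10, 16 and 95. In whole retina a change in the share of cells that carry a mark and a change of the mark per cell cannot be told apart. The H3K4me2 library of PN7 stood apart, with 19.5% of entries at 0 against 0.362%, 0.509% and 2.52% in the others. Changes between stages are therefore given as log2 ratios of the occupancies, with 1 added to each, relative to the median change of all entries. That median was −0.42, −0.49 and 1.0 over the successive intervals and 0.13 from E17.5 to PN15 for H3K4me2, and it was 0, −0.17, 0 and again 0 for H3K27me3. A relative change of at least 1 in size, a 2-fold change, is called higher or lower. The read totals of the libraries are not in the table, so the depth is unknown and no counting interval is given.

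H3K4me2 was plentiful at most of the glycolytic genes from E17.5 on, and H3K27me3 was low at 8 of the 10, Hk2 and Ldhb being the others. Where a symbol was listed more than once, the entry whose 8 values had the largest total stands for the gene in these counts. The median H3K4me2 occupancy of the 10 genes was 84, 56.5, 61.5 and 126, against 41, 27, 24 and 42 over all symbols. All 10 lay above the receptor reference in each H3K4me2 library, against the shares of all symbols just given (72.6%, 69%, 72.1% and 68.3%). A rank of at least 90, where the rank is the percentile of a value among all entries of the same library, was held by 5, 3, 5 and 7 of the 10 genes at the successive stages, against 10%, 9.43%, 9.71% and 9.79% of all symbols. At PN1 Aldoa and Ldha, which shared an occupancy of 58, fell a fraction short of that rank. For H3K27me3 the median of the genes was 8, 7, 5 and 6, against 11, 10, 9 and 10 over all symbols. None of the 10 had a rank of at least 90 in this mark, against 10.4%, 10.5%, 10.3% and 10.2% of symbols. Hk2 alone lay above the H3K27me3 reference, and it did so at all 4 stages, as did 11.4% of all symbols. With the 95th percentile of the receptor entries in place of the 99th, Ldhb joined it at E17.5, PN1 and PN7. The second Pfkm entry, which does not stand for its gene here, also passed that percentile of 20 at PN1 (30) and PN7 (23).

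**Figure D1:**
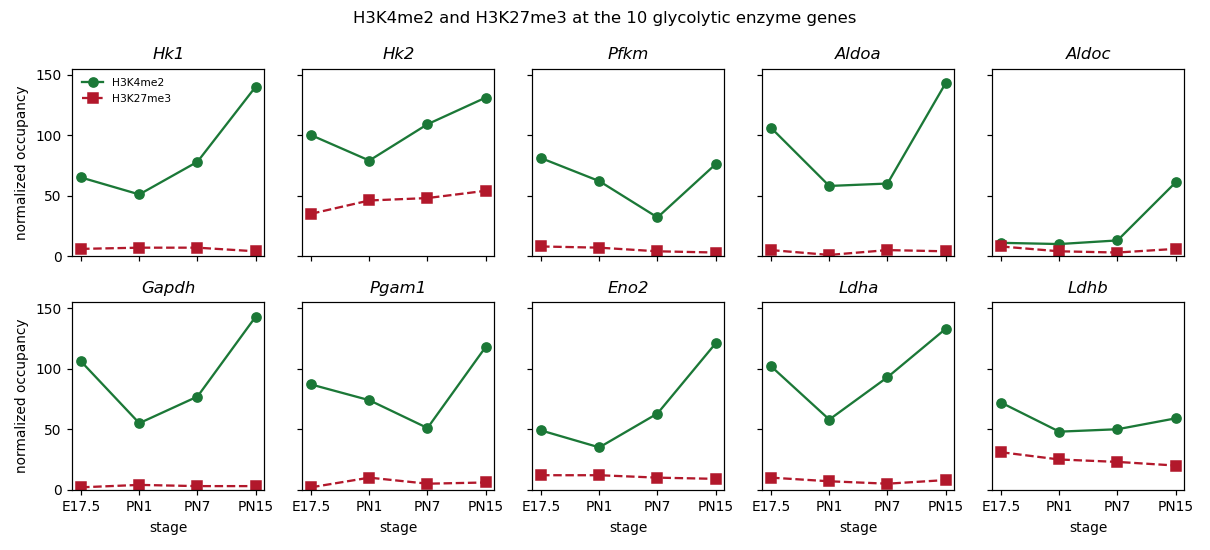
Normalized occupancy (vertical axis) of H3K4me2 (circles) and H3K27me3 (squares) at the 4 stages for each of the 10 genes, 1 library per point and no error bars. A gene listed more than once is shown by its entry with the largest total. H3K4me2 at Aldoc stays between 10 and 13 until PN7 and reaches 61 at PN15, while H3K27me3 stays at or below 12 at 8 genes and lies higher at Hk2 and Ldhb.

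From E17.5 to PN15, H3K4me2 became higher at Aldoc and Eno2 by the 2-fold call and lower at none of the 10 genes. Over all symbols 5.16% were called higher and 12.8% lower. The relative log2 change was 2.23 for Aldoc and 1.15 for Eno2, and Hk1 came just short of the call with 0.96. The remaining 7 lay between −0.42 for Ldhb and 0.30 for Pgam1, and the median of the 10 was 0.29. The 2 calls were also made from PN1 to PN15, where 4.41% of symbols were higher and 20% lower, and under every other setting tried. The genes thus divided into a pair with a gain, Hk1 at the border and 7 whose occupancies at E17.5 and PN15 were less than 2-fold apart.

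**Figure D2:**
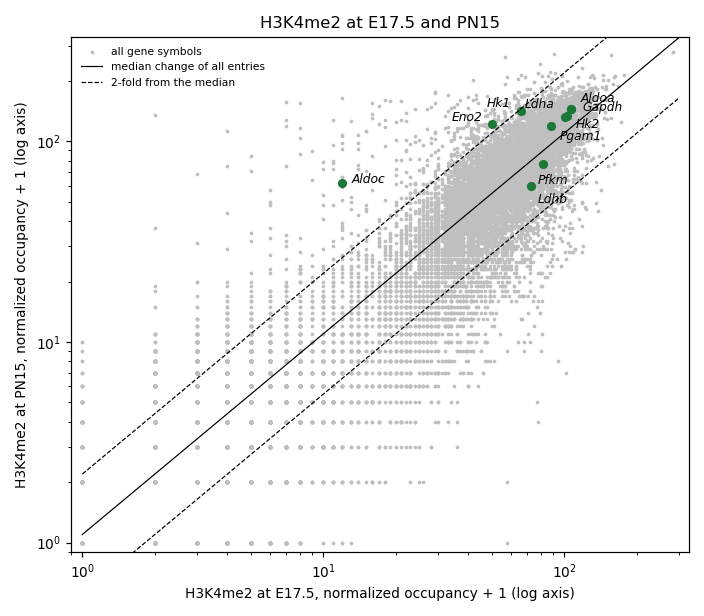
H3K4me2 occupancy plus 1 at E17.5 (horizontal) against PN15 (vertical), both on log axes, for all gene symbols (grey) and the 10 glycolytic genes (green), with the median change of all entries (solid line) and a 2-fold distance from it (dashed). Aldoc and Eno2 lie above the upper dashed line, Hk1 just below it, and Ldhb and Pfkm below the solid line.

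The intervals between successive stages gave fewer stable calls. From E17.5 to PN1 none of the 10 genes was called for H3K4me2, against 13.7% of symbols higher and 1.12% lower, and their median relative change was −0.01. From PN1 to PN7, Eno2 (1.32), Ldha (1.16) and Hk1 (1.09) were called higher and none lower, against 13.4% and 26.6% of symbols, with a median of 0.89. These 3 calls rested on the scaling: with no centring, or with centring on the more occupied entries (those above the median), none of the 10 was called. Hk1 also lost its call with a pseudocount of 5 (0.94). From PN7 to PN15, Aldoc (1.15) was called higher and none lower, against 15.9% and 17.1% of symbols, and with no centring 4 genes were, Aldoc, Pfkm, Aldoa and Pgam1. The PN7 library, with its many entries at 0, is the shared end of both intervals, and its part in these calls was not tested.

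The hexokinases, which take glucose into the pathway, differed in both marks. Hk1, the form found in most tissues including brain, is on chromosome 10 of mm9 (61731603 to 61842656, minus strand), and Hk2, an insulin-responsive form abundant in muscle and also made by photoreceptors, is on chromosome 6 (82675019 to 82724448, minus strand). At the first Hk1 entry H3K4me2 read 65, 51, 78 and 140. The PN15 library thus held the highest value, and the rank of the entry within its library went from 74.3 at E17.5 through 83.5 and 95 to 97.7. H3K27me3 at the same entry was 6, 7, 7 and 4, below the receptor reference throughout.
Hk2 had H3K4me2 occupancies of 100, 79, 109 and 131 and stayed within ranks 96.6 to 98.6. Its H3K27me3 read 35, 46, 48 and 54, with ranks of 84.0, 85.5, 86.4 and 89.6. Each later library held a higher value than the one before, although the relative log2 change over the whole course, E17.5 to PN15, was 0.61 and not called. Both marks were above the reference at all 4 stages at Hk2 only among the 10 genes, and at 8.46% of all symbols. The ratio of Hk1 to Hk2 in H3K4me2 was 0.65, 0.646, 0.716 and 1.07 at the successive stages, so Hk2 was the higher through PN7 and the isozymes were nearly level at PN15. Over the whole course Hk1 exceeded Hk2 in log2 change by 0.71 for H3K4me2, and the difference for H3K27me3 was −1.1, comparisons that the centring does not affect. The H3K27me3 difference rests in part on Hk1 values of 6 and 4, both below the receptor reference.

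Hk1 was listed 2 times, and its entries lay at opposite ends of the H3K4me2 range. The second entry had H3K4me2 occupancies of 3, 3, 1 and 6, at no stage above the receptor reference, so no ratio between the entries is given. H3K27me3 was the other way round, 18, 12, 13 and 12 at the second entry against 6, 7, 7 and 4 at the first, though both stayed under the reference. RefSeq gives Hk1 a pair of starts 39487 bp apart, but the table names entries by symbol only, so which entry belongs to which start was not settled. The bases before these starts and before the Hk2 start are shown because they differ in CpG, the dinucleotide that marks CpG-rich promoters, where H3K4 methylation is commonly found. They are RefSeq promoter sequences (given for GRCm38.p6) placed in mm9 by an exact match of all their bases, on the minus strand, limited to the stretch before the start that lies in no annotated exon, with each CG in capitals. Hk1 start 1 is chr10:61842657-61842906, Hk1 start 2 chr10:61803291-61803419 and Hk2 chr6:82724449-82724698.
Hk1 start 1: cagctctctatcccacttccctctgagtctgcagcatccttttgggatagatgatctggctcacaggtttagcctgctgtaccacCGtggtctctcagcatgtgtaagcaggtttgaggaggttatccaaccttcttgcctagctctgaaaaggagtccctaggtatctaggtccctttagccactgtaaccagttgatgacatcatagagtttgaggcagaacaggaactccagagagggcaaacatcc
Hk1 start 2: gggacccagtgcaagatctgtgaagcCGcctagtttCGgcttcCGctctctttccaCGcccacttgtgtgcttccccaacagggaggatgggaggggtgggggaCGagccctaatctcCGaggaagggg
Hk2: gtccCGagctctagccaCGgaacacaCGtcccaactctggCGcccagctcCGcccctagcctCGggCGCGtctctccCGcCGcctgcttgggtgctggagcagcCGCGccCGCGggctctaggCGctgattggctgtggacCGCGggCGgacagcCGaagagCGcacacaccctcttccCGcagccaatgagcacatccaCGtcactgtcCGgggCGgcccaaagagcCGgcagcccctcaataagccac
The 250 bases before the start held 1 CpG at Hk1 start 1, 14 at Hk1 start 2 and 25 at Hk2, against a median of 6 (quartiles 2 and 16) over 32851 RefSeq promoters. Over the 5-kb window around the start the numbers were 54, 130 and 173. The start of the noncoding gene 2210417K05Rik lies 165 bp from Hk1 start 2, so the windows of both overlap.

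**Figure D3:**
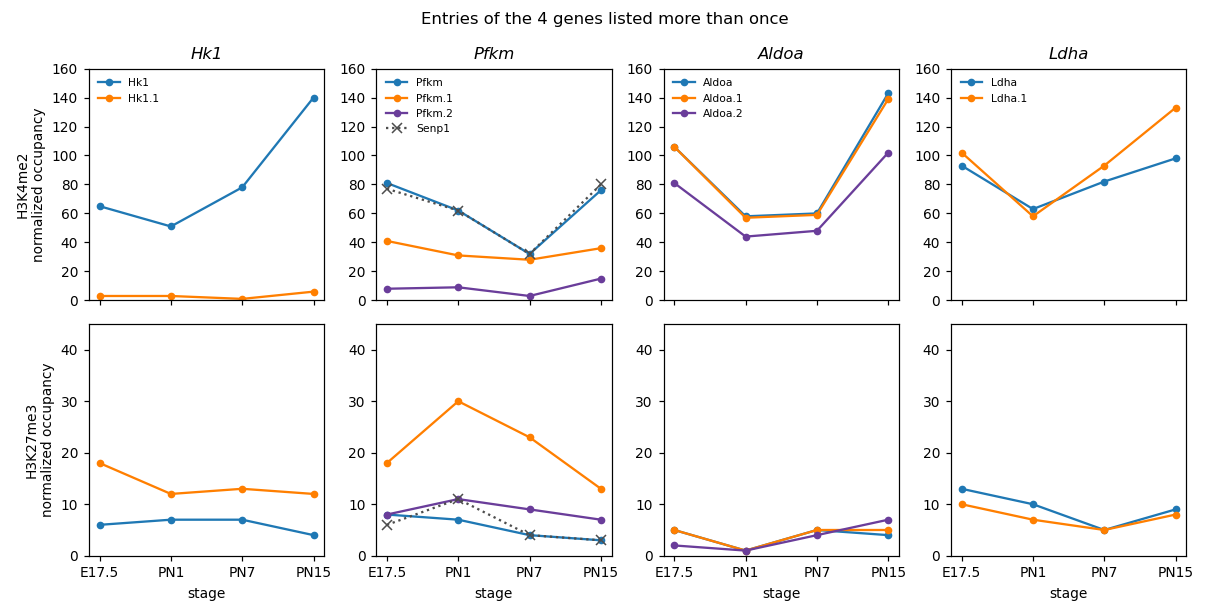
Normalized occupancy (vertical axis) of H3K4me2 (upper row) and H3K27me3 (lower row) at the 4 stages for every entry of the 4 genes listed more than once, with Senp1 (dotted) beside Pfkm, 1 library per point. In H3K4me2 the Hk1 entries are far apart. The Pfkm entries keep the same order, with the first and second near each other at PN7 (32 and 28). The first and second Aldoa entries nearly coincide and the third runs below them, and Senp1 follows the first Pfkm entry.

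Pfkm, the muscle form of phosphofructokinase, on chromosome 15 (97923020 to 97962878, plus strand), was listed 3 times with 3 levels of H3K4me2. The first entry had 81, 62, 32 and 76, the second 41, 31, 28 and 36, and the third 8, 9, 3 and 15. PN7 was lowest at each of them, as it was over all entries. The order of the entries was the same in all 4 libraries, and the first held 1.14 to 2.11 times the second. The third was not above the receptor reference at PN1. H3K27me3 was highest at the second entry, with 18, 30, 23 and 13, against 8, 7, 4 and 3 at the first and 8, 11, 9 and 7 at the third, all below the receptor reference. The change of the first entry from 8 to 3 passed the call (−1.17), but did not with a pseudocount of 5 or with the mean over the entries.
RefSeq has 4 starts for Pfkm, the later ones 15882, 15967 and 19471 bp after the first. The first lies 816 bp from the start of Senp1, a SUMO protease gene, so each window takes in the other start. The Senp1 entry read 77, 62, 32 and 80 for H3K4me2 and 6, 11, 4 and 3 for H3K27me3. It differed from the first Pfkm entry by at most 4 in either mark. The table does not say which Pfkm entry belongs to the start next to Senp1, and within windows that overlap in this way the occupancy of either gene cannot be told apart.

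The aldolases, which cleave fructose 1,6-bisphosphate, held the largest contrast between isozymes in H3K4me2, both in level and in change. Aldoa, the ubiquitous form, is on chromosome 7 (133938748 to 133944265, minus strand), and Aldoc, the brain form, on chromosome 11 (78136470 to 78141283, plus strand). H3K4me2 at Aldoa was 106, 58, 60 and 143 at the first entry, 106, 57, 59 and 139 at the second and 81, 44, 48 and 102 at the third. All the entries were high at E17.5 and PN15 and lower at PN1 and PN7, as was the median of all entries. The 3 RefSeq starts lie within 1269 bp, so their windows overlap and the entries are not separate measurements. H3K27me3 was between 1 and 7 at every Aldoa entry and stage. At these levels the first entry was called lower from E17.5 to PN1 (5 to 1) and higher from PN1 to PN7 (1 to 5), and neither call was made with a pseudocount of 5.
At Aldoc H3K4me2 read 11, 10, 13 and 61. It was thus low, though above the receptor reference, in the first 3 libraries and high in the last, with ranks of 29.9, 30.5, 38.4 and 62.3. The occupancy plus 1 was 5.17 times as high at PN15 as at E17.5 and 4.43 times as high as at PN7. H3K27me3 stayed between 3 and 8, below the reference. The ratio of Aldoa to Aldoc in H3K4me2 went from 9.64 at E17.5 through 5.80 and 4.62 to 2.34 at PN15. The uncentred log2 changes in this mark over the whole course, 0.43 for Aldoa and 2.37 for Aldoc, differed by −1.94. Aldoa stayed the higher of the pair in every H3K4me2 library.
Among rod phototransduction genes the H3K4me2 call from E17.5 to PN15 was made for 10 of 11, against 5.16% of all symbols called higher, with a median relative change of 2.85. Gnat1, the rod transducin gene, had 11, 8, 8 and 105. The relative change of Aldoc, 2.23 and the highest of the 10, lay below that median. The stretch before the first of the pair of Aldoc starts is shown (chr11:78136325-78136469, plus strand, CG in capitals) as that of the gene with the largest gain.
Aldoc start 1: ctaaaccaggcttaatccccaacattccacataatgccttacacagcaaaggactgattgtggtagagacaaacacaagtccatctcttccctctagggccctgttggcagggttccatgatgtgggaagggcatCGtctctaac
The full 250 bases before this start held 5 CpG and the 250 before the second, 1125 bp further on, held 3. The letters TAATCC, the core bound by the photoreceptor factor Crx, occurred once before the first Aldoc start on either strand, and in 6.25% of all promoters of this length. They were found before 3 of the 18 starts of the 10 genes, the others being Ldha start 2 and Pfkm start 4.

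The enzymes after the aldolases were Gapdh, which oxidises glyceraldehyde 3-phosphate, Pgam1, the phosphoglycerate mutase of brain and most tissues, and Eno2, the neuronal enolase. Gapdh, on chromosome 6 (125111871 to 125116485, minus strand), showed the joint highest H3K4me2 of the 10 genes at E17.5 and PN15, 106 and 143, each equal to Aldoa, and ranks of 97.8, 87.5, 94.8 and 98.0. Its H3K27me3 was 2 to 4. Pgam1, on chromosome 19 (41986361 to 41993154, plus strand), read 87, 74, 51 and 118 for H3K4me2. Its PN1 value stood at rank 97.6 and its PN7 value, the lowest of its 4, at rank 82.9. H3K27me3 at Pgam1 was 2, 10, 5 and 6. The calls from 2 to 10 and from 2 to 6 rest on an E17.5 value far under the receptor reference of 32, and the second was not made with a pseudocount of 5.
Eno2, also on chromosome 6 (124710071 to 124719691, minus strand), read 49, 35, 63 and 121 for H3K4me2. PN15 was again the highest and PN1 the lowest. Its rank was 57.2 and 59.8 at E17.5 and PN1 and 90.2 and 94.9 at PN7 and PN15, and the occupancy plus 1 was 2.44 times as high at PN15 as at E17.5. H3K27me3 was 12, 12, 10 and 9. The 250 bases before its single RefSeq start (chr6:124719692-124719941, minus strand, CG in capitals) held 9 CpG and are shown as those of the second gene called higher.
Eno2: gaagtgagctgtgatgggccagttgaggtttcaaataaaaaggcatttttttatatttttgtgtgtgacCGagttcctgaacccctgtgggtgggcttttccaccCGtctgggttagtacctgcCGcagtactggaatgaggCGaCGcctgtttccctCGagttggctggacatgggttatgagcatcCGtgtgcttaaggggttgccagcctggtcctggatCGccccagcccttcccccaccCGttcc
The TAATCC letters were not found in this stretch on either strand. The 250 bases before the starts of Gapdh and Pgam1 held 8 and 22 CpG.

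**Figure D4:**
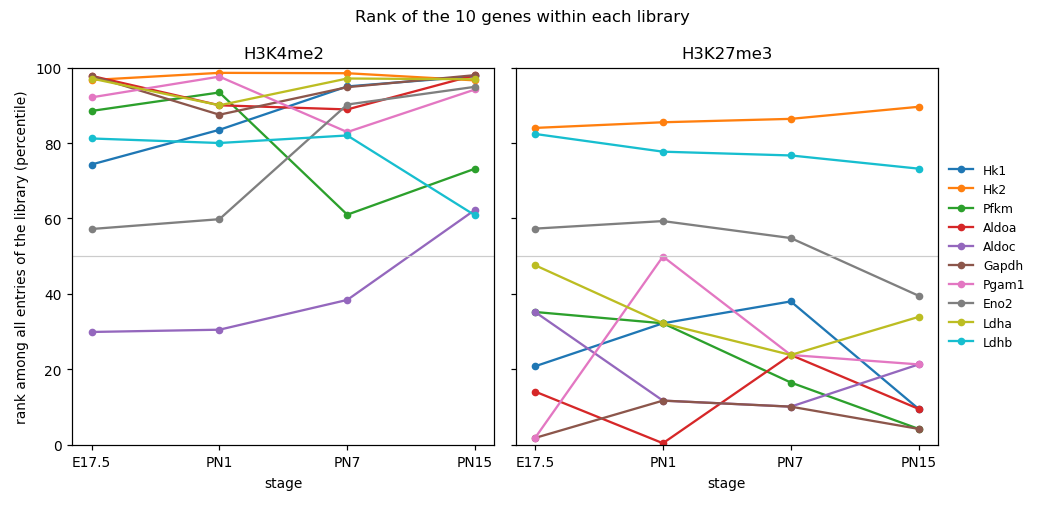
Rank of each of the 10 genes among all entries of its library (vertical axis, percentile) for H3K4me2 (left) and H3K27me3 (right) at the 4 stages, with a grey line at the middle rank. A gene listed more than once is shown by its entry with the largest total. For H3K4me2 Hk1 and Eno2 are near the ranks of Gapdh and Aldoa at PN15, Aldoc passes the middle rank at PN15 only, and for H3K27me3 Hk2 and Ldhb lie above the other 8 genes in every library.

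The lactate dehydrogenases convert pyruvate to lactate and back, Ldha being the muscle and Ldhb the heart form. Ldha, on chromosome 7 (54096845 to 54110997, plus strand), was listed 2 times, with H3K4me2 occupancies of 102, 58, 93 and 133 at the entry with the larger sum and 93, 63, 82 and 98 at the other. Ldhb, on chromosome 6 (142438769 to 142456477, minus strand), had 72, 48, 50 and 59. The RefSeq Ldha starts lie 1278 bp apart, so their windows overlap and the Ldha entries are not separate measurements. From PN1 to PN7 the entry with the larger sum was called higher (1.16) and the other was not (0.87). Ldha had its highest value at PN15 and Ldhb at E17.5. The rank of Ldhb in H3K4me2 was 81.2, 80.0 and 82.0 at the first 3 stages and 60.8 at PN15, whereas the entry of Ldha with the larger sum was at 97.1 at E17.5 and 96.9 at PN15 and the other at 94.7 and 86.9.
The ratio of Ldha to Ldhb in H3K4me2 was 1.42, 1.21, 1.86 and 2.25. Ldha was thus the higher in each library, and the uncentred log2 changes of the pair over the whole course (0.38 and −0.28) were 0.66 apart. The other Ldha entry had a change of 0.07, between these values. In H3K27me3 the order was the reverse, with 10, 7, 5 and 8 at Ldha and 31, 25, 23 and 20 at Ldhb. Ldhb had its highest value at E17.5 and its lowest at PN15, a relative log2 change of −0.61 that was not called. By the entries that stand for the genes, Ldhb was the second highest of the 10 in this mark. The second Pfkm entry was higher at PN1 (30) and equal to it at PN7 (23).
The 250 bases before the first Ldha start (chr7:54100924-54101173, plus strand, CG in capitals) are shown because they hold the letters ACGTG, the core bound by hypoxia-inducible factor, more often than those of the other genes.
Ldha start 1: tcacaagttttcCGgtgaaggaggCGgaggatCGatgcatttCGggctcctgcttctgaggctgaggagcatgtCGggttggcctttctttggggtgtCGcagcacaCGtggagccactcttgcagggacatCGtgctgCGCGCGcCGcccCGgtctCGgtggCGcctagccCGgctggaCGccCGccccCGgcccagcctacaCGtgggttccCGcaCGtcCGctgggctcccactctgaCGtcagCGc
Both strands were searched, and matches on opposite strands may overlap. The letters occurred 5 times here, each strand counted on its own. Where the stretch reads caCGtg, the same on both strands, 1 place gives 2 matches, so the places are fewer than 5. They were found at least once before 7 of the 18 starts of the 10 genes and in 16.6% of all promoters. The stretches before Aldoa starts 2 and 3 overlap, as do those before Pfkm starts 2 and 3, so starts of 1 gene can share a match and are not independent. These 250 bases held 25 CpG, as many as Hk2, and those before the Ldhb start held 14. Over the 18 starts the number ran from 0 at the first Aldoa start to 25 with a median of 9, and 11 lay above the median of all promoters. None of the 5-kb windows around the 18 starts aligned to another place in mm9, so no near-identical copy of a window was found.

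For each gene, the gene outside the group with the nearest pattern was found as the least Euclidean distance over the 8 log2 occupancies, each with 1 added. The distance was between 0.44 and 0.76 for 9 genes and 1.2 for Aldoc. The nearest gene was Gpx4 for Hk1, Cxcr4 for Hk2, Cdc42bpa for Pfkm, Mll3 for Aldoa, Fkbp3 for Gapdh, Rnf4 for Pgam1, Hs6st1 for Eno2, Nup188 for Ldha and Gabrb2 for Ldhb. Phyhd1, the nearest to Aldoc, had H3K4me2 occupancies of 11, 14, 23 and 50 and H3K27me3 occupancies of 7, 4, 4 and 10.

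Of 18 other glycolytic enzyme genes, 17 were measured, and from E17.5 to PN15 H3K4me2 was called higher at 2 and lower at 1, against 5.16% and 12.8% of all symbols. Their median relative log2 change was 0.19, against 0.29 for the 10 genes. Gpi1, glucose phosphate isomerase, had 56, 34, 51 and 130 (1.07), and Gapdhs, the sperm form of Gapdh, changed from 3 to 10 near the receptor reference. The most occupied of the list were called in neither direction: Pkm2, pyruvate kinase, had 112, 84, 58 and 174, Pfkp, the platelet phosphofructokinase, 80, 78, 115 and 139, and Eno1, the ubiquitous enolase, 103, 84, 42 and 121.
For H3K27me3, 2 of the 17 were called higher from E17.5 to PN15 and none lower, against 12.2% and 16.1% of all symbols. Pklr, the pyruvate kinase of liver and red cells, had 55, 80, 184 and 146, with H3K4me2 of only 4, 5, 2 and 3, and Tpi1, triose phosphate isomerase, changed from 3 to 8. Of the 10 genes, 1 was called higher (Pgam1) and 1 lower (Pfkm), beside the same shares of all symbols, and their median relative change was −0.33. Over the shorter intervals 1 was higher and 1 lower from E17.5 to PN1 (5.77% and 8.27% of symbols), 1 higher and 0 lower from PN1 to PN7 (8.56% and 8.77%), and 0 in either direction from PN7 to PN15 (15% and 9.7%).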

How the data were processed

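The 8 libraries used, 1 for each of 2 marks and 4 stages, were made by the authors from whole retina. Per the submitters' processing notes and the study's methods, the authors aligned to mm9 with Bowtie 0.12.4, dropped reads with several positions and placed read midpoints for an assumed fragment of 190 bp. The deposited values are scores, namely reads within 2.5 kb of each RefSeq TSS normalized by the authors to the library total and given without decimals. A count model would not suit them. The column of H3K27me3 at PN7 has a letter b after the mark. Of 10 samples, 2 have no column and were not used here.

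Symbols were matched without regard to case and without the number after the point. The entry with the largest total stood for a gene listed more than once. Changes are log2 ratios with a pseudocount of 1, centred on the median of all entries, and called at 1 in size. With 1 library per group there was no test, and a called change has no error. All 10 genes were named with every entry, other lists by their called genes and up to 4 of the largest sum, and the nearest gene by Euclidean distance. Some genes named by these choices are not reported here. The 10 genes and the lists were chosen with earlier results of these data known. Alternatives were a pseudocount of 5, no centring, centring on entries above the median, a mean of at least 10, the mean over all entries of each gene, the 95th percentile of the receptor entries and, added after seeing the data, PN1 in place of E17.5. Gene positions are from GENCODE (the NCBIM37 annotation, the same build as mm9), and 5-kb windows were aligned with minimap2 2.31-r1302. Motifs were searched on both strands in the 250 bases before each start. Python 3.11.15, numpy 2.4.6, pandas 2.3.3 and matplotlib 3.10.9 were used, and the steps were tested on simulated data.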

Additional observations from a re-analysis of the deposited data

How the results depend on the processing

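The number of the 10 genes called higher for H3K4me2 from E17.5 to PN15 was 2 and stayed at 2 in each alternative except no centring, where Hk1 (1.1) made it 3, and none was called lower. From PN1 to PN7 the number called higher was 3. It was 2 with a pseudocount of 5, and 0 with no centring, with centring on the entries above the median and with a mean of at least 10. From PN7 to PN15 it was 1, and 4 with no centring. For H3K27me3 every call among the 10 genes was at a low value. With a mean of at least 10 the number called higher went from 1 to 0 for E17.5 to PN1, PN1 to PN7 and the whole course, and the number called lower from 1 to 0 from E17.5 to PN1 and from E17.5 to PN15. A pseudocount of 5 left 0 of each of these calls except the higher one from E17.5 to PN1, and the mean over all entries of each gene left 0 lower from E17.5 to PN15. With PN1 in place of E17.5, a setting chosen after seeing the data, the relative H3K27me3 change to PN15 turned from −0.26 to 1.32 for Aldoa and from 1.22 to −0.65 for Pgam1. The number of genes above the receptor reference for H3K27me3 was 1, and 2 at E17.5, PN1 and PN7 with its 95th percentile. Of the other glycolytic enzymes, 2 were called higher for H3K4me2 and 1 with a pseudocount of 5, centring above the median, a mean of at least 10 or PN1 as the start, and 1 was called lower and 5 with PN1 as the start. For H3K27me3 the 2 called higher became 1 with a pseudocount of 5, a mean of at least 10 or PN1 as the start. A mean of at least 10 removed the genes behind the H3K27me3 calls among the 10, whereas the H3K4me2 ones of PN1 to PN7 stayed in at 0.70 for Hk1, 0.93 for Eno2 and 0.77 for Ldha. Other causes were not tested. Of the values of single genes, 370 kept their side of the call, some of the uncalled ones with a change of sign, 15 lost the call, 4 gained it, and 2 changed sign with a call at 1 of the settings. No paired analysis was possible because each mark and stage has 1 library, and for the same reason no library could be left out of a group. The rounding to whole numbers limits values under about 10, and without read totals no interval could be given.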

Other observations

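Genes that move glucose and lactate across membranes or regulate glycolysis were read in the same way, and 20 of 21 were measured. From E17.5 to PN15 none was called higher for H3K4me2 and 1 lower, Slc2a2, which changed from 3 to 1 below the receptor reference. Over all symbols 5.16% were called higher and 12.8% lower. Their median relative log2 change was 0.20. Slc2a1, the main glucose transporter of the retina, read 97, 76, 66 and 153 for H3K4me2 in stage order, and Slc16a1, a lactate and pyruvate transporter, had 79, 54, 83 and 139. The entry of Pfkfb2, which makes and removes the phosphofructokinase activator fructose 2,6-bisphosphate, had 102, 77, 113 and 199.

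H3K27me3 in the same list was called higher at 2 and lower at 4 from E17.5 to PN15, with a median of −0.36. With 12.2% of all symbols called higher and 16.1% lower, these counts lay near the background, and the values of the called genes are given as a description. Pfkfb3, a second enzyme of fructose 2,6-bisphosphate, had H3K27me3 occupancies of 13, 17, 66 and 86, under the receptor reference at E17.5 and PN1 and above it at PN7 and PN15. Its H3K4me2 read 120, 90, 116 and 91 and was called lower from PN7 to PN15, with a relative log2 change of −1.35. With no centring that change was −0.35, and 17.1% of all symbols were called lower over this interval. Pdk1, a kinase that inhibits pyruvate dehydrogenase, changed from 17 to 36. Slc2a3, the neuronal glucose transporter, had 134, 136, 98 and 51 and was the one lower call that began above the reference. The others were Slc16a1 from 24 to 10, Pfkfb2 from 12 to 3 and Bsg, the chaperone of the lactate transporters, from 10 to 1. None of these changes has a replicate.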
